A study of Mus musculus with 12 samples.

Results

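H19 and 9 other imprinted genes that control growth (Igf2, Igf2r, Grb10, Plagl1, Cdkn1c, Meg3, Dlk1, Peg3 and Mest) were examined, 10 of the 55487 genes counted in the study. They were chosen by name, with earlier results of the same libraries in view, so their values in all 12 libraries are given as a description, with no p of their own, and a call among them is only counted beside the share of all genes called. Each symbol was matched to its Ensembl identifier in the mouse GRCm38 annotation, and each matched a single row of the count tables.

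RNA sequencing was done on cells of C57BL/6 mice, labelled as 8 weeks old, in 2 experiments. In the first, bone marrow macrophages (BMMs) were grown with the macrophage growth factor M-CSF from female mice after ovariectomy (OVX) or a sham operation, with 3 libraries of each. In the second, bone marrow mesenchymal stem cells (MSCs) were kept alone as controls (MSC), with RAW cells, a mouse macrophage line (MSC+RAW-TW), or with RAW cells given lipopolysaccharide (MSC+RAW-LPS-TW), with 2 libraries of each. The labels give co-culture, and the membrane between the 2 cell types comes from the study's group names. The BMMs and the MSCs were obtained by culture and adherence, and neither source gives a sort before the RNA was taken. How many mice stand behind a library was not given in the sources used here.

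Imprinted genes are read mainly from a single parental copy, and a methylation mark set in the germ line distinguishes the copies. H19 and Igf2 lie side by side and share enhancers: the maternal copy gives H19, a long non-coding RNA, and the paternal copy gives Igf2, a fetal growth factor. The paternally read genes of the group mostly promote growth, and the maternally read ones mostly restrain it. The RNA counts do not tell the parental copies apart.

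The sequence of H19 matters here because the RNA is also the precursor of miR-675. H19 lies on the minus strand at chr7:142575529-142578143 of GRCm38 and is annotated as a long intergenic non-coding RNA with 2460 bases of exon. The 84-base hairpin of miR-675 is within its exons, starting 996 bases from the 5′ end of the gene, and no read was assigned to the microRNA gene itself in any of the 12 libraries. Both mature microRNAs are shown from the RefSeq annotation of GRCm38.p6, with the seed (bases 2 to 8) in capitals.
mmu-miR-675-5p: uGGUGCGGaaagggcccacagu
mmu-miR-675-3p: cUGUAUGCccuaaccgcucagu
The seeds differ from each other. The 5p sequence lies at chr7:142577112-142577133 and the 3p sequence at chr7:142577078-142577099, both on the minus strand. Poly(A) libraries do not measure mature microRNAs, so every H19 value below is the long RNA.

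The other 9 genes are spread over 6 chromosomes of GRCm38. On the same chromosome as H19 and on the same strand are Igf2 at chr7:142650766-142666816, Cdkn1c at chr7:143458339-143461050 and Peg3 at chr7:6703892-6730431. Also on minus strands are Grb10 at chr11:11930508-12038683 and Igf2r at chr17:12682406-12769664. On plus strands are Mest at chr6:30723547-30748465, Plagl1 at chr10:13060504-13131694, Dlk1 at chr12:109452823-109463336 and Meg3 at chr12:109541001-109571726, the last pair 77.7 kb apart.

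RefSeq promoter windows, the 250 bases before each start site, were found for 8 of the 10 genes, 15 windows in all. They were searched on both strands for GGGGCCCC, a motif bound by the zinc finger protein Plagl1, for TGCCGC, bound by the imprint-keeping protein Zfp57, and for the estrogen response element. GGGGCCCC was found in 1 of the 15 windows, against 0.889% of 32851 windows of all genes. TGCCGC was found in 4 of the 15, against 8.68% of all windows, and the 4 belong to Mest, Meg3 and Plagl1. The 2 windows of Mest among them start 3 bases apart and hold the same 2 matches, so the 4 windows are not separate counts. The 4 windows held 52.4% to 70.4% GC and 10 to 19 CG dinucleotides, beside medians of 52.4% and 6 over all windows. The shares were not matched for base composition. The estrogen response element was found in 0 of the 15, against 0.0639% of all windows. The matches are shown in capitals for Peg3, Mest and Meg3, as examples of each motif.
Peg3, chr7:6730602-6730631, minus strand: gactctgcttgGGGGCCCCtaacactgact
Mest, chr6:30737800-30738049, plus strand: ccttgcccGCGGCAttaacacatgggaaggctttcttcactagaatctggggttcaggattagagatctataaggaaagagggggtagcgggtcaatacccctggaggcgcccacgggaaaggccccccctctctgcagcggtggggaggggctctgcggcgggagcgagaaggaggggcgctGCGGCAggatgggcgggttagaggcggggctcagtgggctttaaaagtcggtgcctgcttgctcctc
Meg3, chr12:109540746-109540995, plus strand: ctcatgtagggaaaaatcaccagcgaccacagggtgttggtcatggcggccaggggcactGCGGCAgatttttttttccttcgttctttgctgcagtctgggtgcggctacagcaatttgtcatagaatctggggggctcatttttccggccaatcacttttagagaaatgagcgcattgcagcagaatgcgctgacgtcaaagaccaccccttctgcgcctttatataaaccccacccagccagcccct
In Mest and Meg3 the capitals read GCGGCA, the reverse complement of the Zfp57 motif. A match is a string of letters and does not show that a protein was bound.

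Depth ran from 17012923 to 45367105 counts per library. Sham replicates 2 and 3 differed by 2.58 to 2.78 times the sampling variance and the libraries of MSC+RAW-TW by 3.07 to 3.35 times. Other replicate pairs reached 23.3 to 149.9 times among highly counted genes. Each near-identical pair was counted as 1 sample in means, SD and n, which leaves no replicate check for MSC+RAW-TW. Among genes with 1 to 20 counts, 60.0% to 71.4% of the counts were even, so small counts carry less information than their size. All libraries held both macrophage and stromal RNA. The summed level of 12 macrophage markers was 42632 to 62475 CPM (counts scaled to a common library total) in the BMM libraries and 14533 to 36825 CPM in the MSC libraries. Lyz2 alone gave most of these sums, such as 21614 to 21705 CPM of 27654 to 27698 CPM in MSC. The median macrophage marker was at 369 CPM in OVX, 642 in sham, 583 in MSC, 608 in MSC+RAW-TW and 255 in MSC+RAW-LPS-TW, which did not separate the experiments. The summed level of 12 stromal markers was 7714 to 9198 CPM in the BMM libraries and 2161 to 3900 CPM in the MSC libraries. Thy1, a surface protein used to define MSCs, was at 0.240 to 2.16 CPM in the libraries labelled MSC and at 52.7 to 69.2 CPM in those labelled BMM. Pdgfrb, a receptor of stromal cells, was at 139 to 167 CPM in the libraries labelled MSC and 91.1 to 114 CPM in those labelled BMM, and the ranges of Pdgfra and Lepr overlapped. In bulk RNA, fewer cells of a type and less RNA per cell cannot be told apart.

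Per length of exon, H19 had the highest level of the 10 genes in every group but MSC+RAW-LPS-TW. Its mean level was 124 CPM per kb in OVX, 88.1 in sham, 23.0 in MSC, 39.5 in MSC+RAW-TW and 1.74 in MSC+RAW-LPS-TW. Grb10, an adaptor protein that dampens insulin and IGF signalling, and Igf2r, the receptor that takes up and degrades Igf2, came next at 3.49 to 17.01 CPM per kb. In sham, the ranges of Igf2r and Grb10 overlapped, and in the other 4 groups they did not. In MSC+RAW-LPS-TW the order was Igf2r at 14.1, Grb10 at 7.12 and H19 at 1.74 CPM per kb, and the ranges of these neighbours did not overlap. The other 7 genes stayed at or below 1.57 CPM per kb in every library, and several of them overlapped their neighbours in the order. Igf2 and Dlk1 were the lowest in the BMM groups, and Igf2, Meg3 and Dlk1 were lowest in the MSC group. The place of Igf2 is uncertain, since 3596 of its 5723 exon bases are shared with another gene on the same strand.

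**Figure D1:**
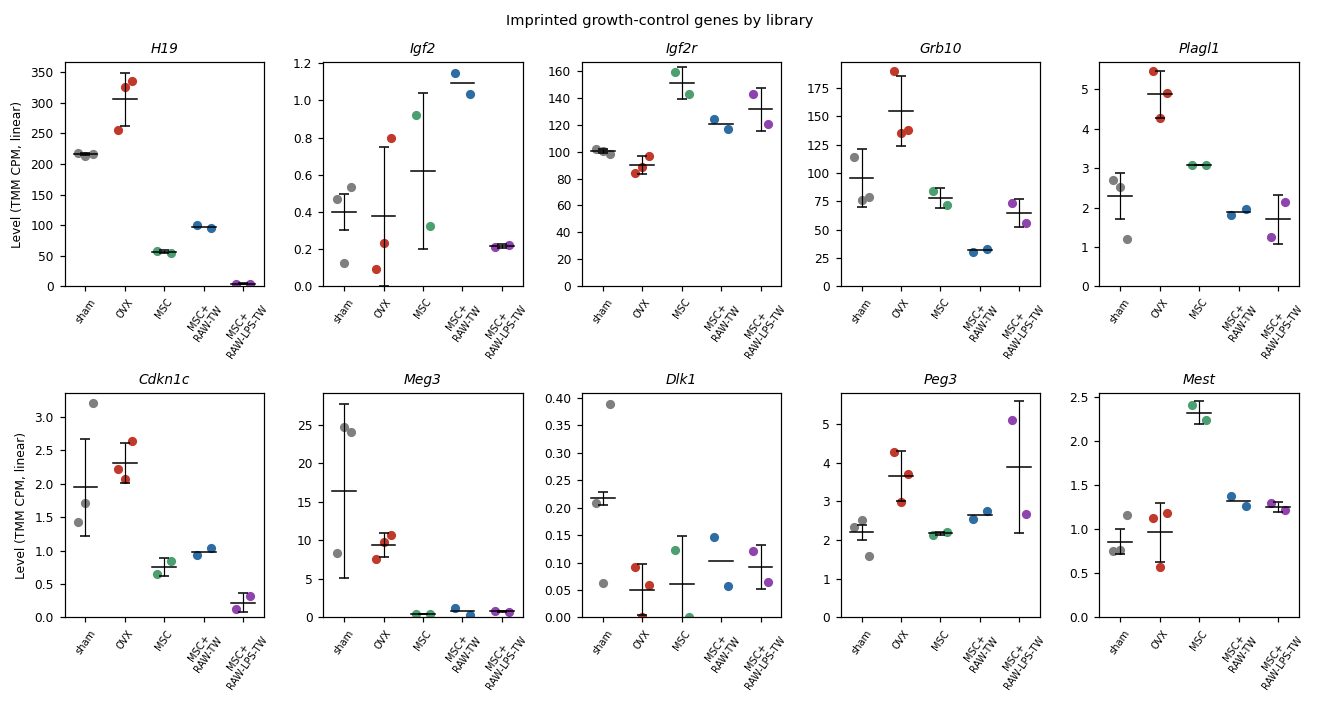
Level of each of the 10 genes (vertical axis, TMM-scaled CPM, linear) in every library of the 5 groups. Points are libraries; bars show the mean and SD with a near-identical pair as 1 sample, cut off at 0, and MSC+RAW-TW has no SD. H19 is highest in the OVX libraries, between 255 and 336, and lowest in MSC+RAW-LPS-TW, at 3.99 and 4.56.

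The first comparison asked how BMMs of OVX mice differ from those of sham mice. All values are CPM scaled by TMM, which corrects for differences in library make-up. H19 was at 255, 326 and 336 CPM in OVX replicates 1, 2 and 3 and at 218, 214 and 217 CPM in sham. All OVX libraries were above all sham libraries. The group means were 306 ± 44.0 CPM (SD, n = 3) and 217 ± 2.101 CPM (SD, n = 2), and the log2 fold change was 0.50 with a standard error (SE) of 0.15. It was 0.89 after removing trends with GC content and gene length. Igf2, its neighbour 72.6 kb away, held 2 to 27 counts in each BMM library, at 0.0915 to 0.800 CPM in OVX and 0.127 to 0.533 CPM in sham. The groups overlapped throughout and the log2 fold change was -0.06 (SE 0.81). Leaving out OVX replicate 3 gave -1.21 and leaving out OVX replicate 1 gave 0.39. Igf2r, the scavenger receptor, was at 84.2, 88.4 and 97.0 CPM in OVX and at 102, 101 and 98.5 CPM in sham. Its groups did not overlap, with OVX lower, but the log2 fold change was only -0.16 (SE 0.13).

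Grb10 and Plagl1 were also higher in OVX. Grb10 was at 190, 136 and 138 CPM in OVX and at 114, 76.2 and 78.5 CPM in sham. All OVX libraries were above all sham libraries, and the log2 fold change was 0.79 (SE 0.21). Sham replicate 1 stood above the near-identical pair, and the log2 fold change was 1.01 without it. Plagl1, a zinc finger factor that regulates other imprinted genes, was at 5.46, 4.27 and 4.92 CPM in OVX and at 2.71, 2.53 and 1.21 CPM in sham. The lowest OVX library was above the highest sham library. The log2 fold change was 1.17 (SE 0.32), or 2.25-fold. The sham library at 1.21 CPM, replicate 3, is one of the near-identical pair, and without it the log2 fold change was 0.89.

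Peg3, a paternally read zinc finger gene, was at 4.27, 2.98 and 3.71 CPM in OVX and at 2.34, 2.53 and 1.60 CPM in sham. The groups did not overlap, and the log2 fold change was 0.76 (SE 0.28), or 0.49 with the GC content and length trends removed. Meg3, the maternally read non-coding RNA of the Dlk1 cluster, went the other way. It was at 7.65, 9.81 and 10.7 CPM in OVX and at 8.41, 24.8 and 24.2 CPM in sham. Sham replicate 1 fell within the OVX range and the near-identical pair was above it. The log2 fold change was -1.02 (SE 0.37) and rested on that pair: it was -1.38 without sham replicate 1 and -0.82 with the pair as 1 sample.

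The remaining genes showed overlapping groups. Cdkn1c, an inhibitor of cyclin-dependent kinases, was at 2.07 to 2.64 CPM in OVX and 1.43 to 3.20 CPM in sham, with a log2 fold change of 0.14 (SE 0.35). With the GC content and length trends removed this was 0.64. Mest, a paternally read gene of the hydrolase fold family, was at 0.576 to 1.19 CPM in OVX and 0.755 to 1.16 CPM in sham, with a log2 fold change of 0.11 (SE 0.43). Dlk1, a membrane protein that blocks adipocyte differentiation, had 0 to 8 counts in every one of the 12 libraries and did not pass the filter on low counts in either experiment.

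Of the 9 genes that passed the filter, 1 (Plagl1) passed both limits of a call, which are a 2-fold difference and a Benjamini-Hochberg adjusted p not above 0.05, while 11.5% of the 15778 genes tested did. Plagl1 no longer passed them when any OVX library, sham replicate 2 or sham replicate 3 was left out, with the series of library numbers as a block, or with the GC content and length trends removed. The groups did not overlap for 4 genes higher in OVX and 1 lower, beside 22.3% and 22.2% of all genes tested. The median log2 fold change of the 9 genes was 0.14, beside 0.00 over all genes. The summed macrophage markers were lower in OVX (42632 to 47079 CPM) than in sham (58561 to 62475 CPM), and 3 of 12 fell (fell and rose count genes past both limits). Of the 12, 10 had log2 fold changes below 0 and 2 above, with a median of -0.61. The summed stromal markers were 8358 to 9198 CPM in OVX and 7714 to 8123 CPM in sham, and 2 of 12 rose, but 6 of the 12 were above 0 and 6 below, with a median log2 fold change of 0.01. The 7 osteoclast markers summed to 337 to 346 CPM in OVX and 649 to 783 CPM in sham, and 3 fell. Of the 6 that passed the filter, 5 were below 0 and 1 above, with a median of -1.04. The 8 neutrophil markers summed to 1199 to 1332 CPM in OVX and 807 to 943 CPM in sham, and 1 fell. Of the 8, 5 were above 0 and 3 below, with a median of 0.39. Whether these differences bear on the 10 genes was not tested.

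**Figure D2:**
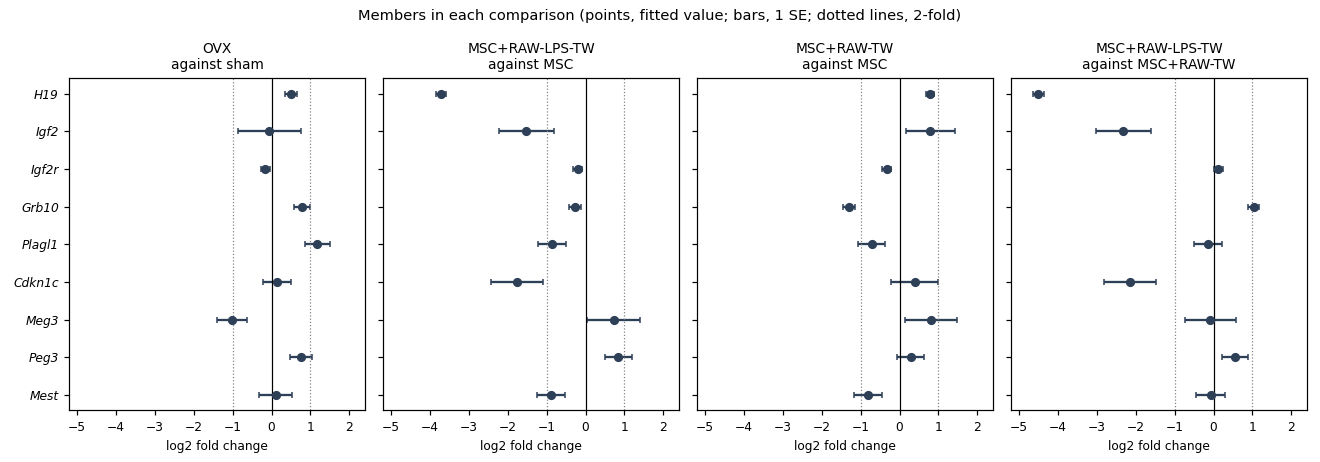
Fitted log2 fold change (horizontal axis) of the 9 genes that passed the filter in each of 4 comparisons, with bars of 1 SE and dotted lines at a 2-fold difference. H19 lies at 0.50 in OVX against sham and at -3.73 and -4.51 where MSC+RAW-LPS-TW is compared with MSC and with MSC+RAW-TW. The 3 MSC comparisons share libraries. The fit kept near-identical libraries apart, so bars may be too short.

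The second experiment asked what MSCs express next to resting or activated macrophage-like cells. H19 was at 58.0 and 55.2 CPM in MSC, at 99.7 and 94.6 CPM in MSC+RAW-TW and at 3.99 and 4.56 CPM in MSC+RAW-LPS-TW. No libraries of different groups overlapped. The log2 fold change was -3.73 (SE 0.13) between MSC+RAW-LPS-TW and MSC, which is 13.2-fold lower, and it stayed between -3.82 and -3.66 over all alternatives. Against MSC+RAW-TW, which has 1 sample and so no test, it was -4.51 (SE 0.13), and MSC+RAW-TW against MSC gave 0.78 (SE 0.11). The last value was 0.30 with the GC content and length trends removed. These comparisons share libraries and are not separate evidence. The fit kept the near-identical MSC+RAW-TW libraries apart, so the SEs involving that group may be too small.

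Igf2 was at 0.919 and 0.323 CPM in MSC, 1.15 and 1.04 CPM in MSC+RAW-TW and 0.210 and 0.223 CPM in MSC+RAW-LPS-TW, from 7 to 47 counts. Both MSC+RAW-LPS-TW libraries were below every other library of the experiment. The log2 fold change against MSC was -1.53 (SE 0.71) and depended on which MSC library was kept: it was -2.10 without replicate 2 and -0.59 without replicate 1. Cdkn1c was at 0.654 and 0.851 CPM in MSC, 0.929 and 1.04 CPM in MSC+RAW-TW and 0.120 and 0.319 CPM in MSC+RAW-LPS-TW. The last 2 libraries held 4 and 10 counts, and the log2 fold change against MSC was -1.76 (SE 0.68). Without the library at 0.319 CPM it was -2.61 and without the other -1.25.

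Grb10 had another pattern. It was at 84.5 and 71.9 CPM in MSC, at 30.4 and 33.0 CPM in MSC+RAW-TW and at 73.3 and 56.1 CPM in MSC+RAW-LPS-TW. MSC+RAW-TW was the low group, and the ranges of the others overlapped. The log2 fold change of MSC+RAW-TW against MSC was -1.30 (SE 0.15), that of MSC+RAW-LPS-TW relative to MSC+RAW-TW was 1.03 (SE 0.15), and that of MSC+RAW-LPS-TW against MSC was -0.27 (SE 0.15). The SEs involving MSC+RAW-TW again come from the fit that kept its near-identical libraries apart. Mest and Plagl1 were both lower in the co-cultured groups than in MSC. Mest was at 2.41 and 2.23 CPM in MSC, 1.37 and 1.27 CPM in MSC+RAW-TW and 1.29 and 1.21 CPM in MSC+RAW-LPS-TW. Plagl1 was at 3.08 and 3.08 CPM in MSC, 1.81 and 1.96 CPM in MSC+RAW-TW and 1.26 and 2.14 CPM in MSC+RAW-LPS-TW. No co-cultured library of either gene reached the MSC level, and the log2 fold changes of MSC+RAW-LPS-TW against MSC were -0.89 (SE 0.36) and -0.86 (SE 0.35).

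Igf2r varied least, at 143 to 159 CPM in MSC, 117 to 124 CPM in MSC+RAW-TW and 120 to 142 CPM in MSC+RAW-LPS-TW. Peg3 was at 2.14 to 2.76 CPM in 5 of the 6 libraries and at 5.10 CPM in the sixth, MSC+RAW-LPS-TW library A. Its log2 fold change against MSC was 0.84 (SE 0.35) with that library and 0.27 without it. Meg3 held 13 to 51 counts per library, at 0.374 to 1.25 CPM. The MSC+RAW-TW libraries, near-identical over all genes, lay at the ends of this range, so that group could not be placed, while both MSC+RAW-LPS-TW libraries (0.781 and 0.766 CPM) were above both MSC libraries (0.490 and 0.440 CPM).

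In MSC+RAW-LPS-TW against MSC, H19 alone of the 9 genes passed both limits, beside 12.8% of the 18806 genes tested. Leaving out MSC+RAW-LPS-TW library B left 1 library in that group. The log2 fold changes were then -2.61 for Cdkn1c, 1.23 for Peg3 and -1.29 for Plagl1. Without library A they were -1.25, 0.27 and -0.56. The groups did not overlap for 2 genes higher and 6 lower in MSC+RAW-LPS-TW, beside 29.6% and 29.8% of all genes. With 2 samples a group, non-overlap is common. The median log2 fold change of the 9 genes was -0.86, beside -0.01 over all genes. Past 2-fold were 4 of 9 genes between MSC+RAW-TW and MSC+RAW-LPS-TW (44.2% of all genes) and 1 of 9 in MSC+RAW-TW against MSC (33.5%). Marker levels moved in the same libraries. The 12 macrophage markers summed to 27654 to 27698 CPM in MSC, 36300 to 36825 CPM in MSC+RAW-TW and 14533 to 15047 CPM in MSC+RAW-LPS-TW, the order of the H19 levels. The 12 stromal markers summed to 2712 to 2852, 2161 to 2168 and 3883 to 3900 CPM, and the 6 adipocyte markers to 842 to 929, 553 to 585 and 166 to 170 CPM. Between MSC+RAW-LPS-TW and MSC, 4 of 12 macrophage markers fell and 1 rose, 2 of 12 stromal markers rose, and 4 of 6 adipocyte markers fell. Adgre1, a macrophage surface receptor, was at 512 to 584 CPM in MSC, 332 to 337 CPM in MSC+RAW-TW and 1405 to 1536 CPM in MSC+RAW-LPS-TW, which is not the order of H19. The 8 neutrophil markers summed to 11.7 to 16.4 CPM in MSC and 369.96 to 557 CPM in MSC+RAW-LPS-TW, and 2 of the 3 that passed the filter rose. The 7 osteoclast markers summed to 108 to 111 CPM in MSC and 827 to 891 CPM in MSC+RAW-LPS-TW, and 2 of 5 rose and 1 fell. Their part in the differences of the 10 genes was not tested.

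Other imprinted genes were examined as a list of 49, kept apart from the 10, of which 36 passed the filter in each experiment. In OVX against sham, edgeR's quasi-likelihood test called 7 of the 36 (4 rose and 3 fell), beside 7.47% of all genes that rose and 4.06% that fell. The median log2 fold change was 0.27. Ascl2, a transcription factor of the trophoblast and of intestinal stem cells, fell from 5.59 ± 0.827 CPM (SD, n = 2) in sham to 0.650 ± 0.0542 CPM (SD, n = 3) in OVX, with a log2 fold change of -3.14 (SE 0.28, adjusted p = 0.00068 by edgeR). Rasgrf1, an exchange factor for Ras, fell from 2.30 to 0.323 CPM, a log2 fold change of -2.83 (SE 0.38, adjusted p = 0.00198 by edgeR). Both kept their call under all 14 alternatives. Trappc9 fell by 1.02 on the log2 scale and was called under 7 of the 14, but not without OVX replicates 1 or 2 or sham replicates 2 or 3, with the near-identical sham pair as 1 sample, with no filter, or with the GC content and length trends removed.

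Those that rose were Asb4 (log2 fold change 1.40), a ubiquitin ligase adaptor, Ube3a (1.21), the ubiquitin ligase of the Angelman locus, Slc38a4 (1.20), an amino acid transporter, and Kcnq1ot1 (1.04), the long non-coding RNA that silences the Cdkn1c domain. None of the 4 was called once trends with GC content and gene length were removed, and the log2 fold changes were then -0.01 for Kcnq1ot1, 0.04 for Ube3a, 0.73 for Slc38a4 and 0.99 for Asb4. The GC contents of their longest transcripts are 40.3%, 36.9%, 43.4% and 44.2%, in that order. Slc38a4 was called under 7 of 14 alternatives and lost its call without any OVX library, without sham replicate 2 or 3, and with the near-identical sham pair as 1 sample. Asb4 lost it without OVX replicate 1, and Kcnq1ot1 without OVX replicate 3 or sham replicate 1. Leaving out OVX replicate 1 gave 4 called genes in place of 7, and leaving out sham replicate 1 gave 13.

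In MSC+RAW-LPS-TW against MSC, 5 of the 36 were called (3 rose and 2 fell), beside 6.74% of all genes that rose and 6.09% that fell. Rasgrf1 rose from 1.37 ± 0.142 CPM to 22.1 ± 1.59 CPM (SD, n = 2 each), a log2 fold change of 4.02 (SE 0.22, adjusted p = 7.01e-07 by edgeR). Dio3, the deiodinase that inactivates thyroid hormone, fell from 13.03 ± 2.197 CPM to 0.966 ± 0.348 CPM (SD, n = 2 each), with a log2 fold change of -3.75 (SE 0.25, adjusted p = 2.45e-06 by edgeR). Ascl2 rose by 1.86 (SE 0.34) and Ppp1r9a, a neuronal actin-binding protein, by 1.67 (SE 0.20), and these 4 calls held under all 14 alternatives. Slc22a18, a transporter next to Cdkn1c, fell by 1.32 on the log2 scale (SE 0.39, adjusted p = 0.0307 by edgeR) and was called under 9 of the 14, but not without either MSC library, MSC+RAW-TW library B or MSC+RAW-LPS-TW library B, nor in a fit of only the 2 groups compared. Ascl2 and Rasgrf1 were called in both experiments, lower in OVX relative to sham, and with more RNA in MSC+RAW-LPS-TW relative to MSC. The difference between the 2 experiments was not tested, since they differ in cells, groups and libraries.

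**Figure D3:**
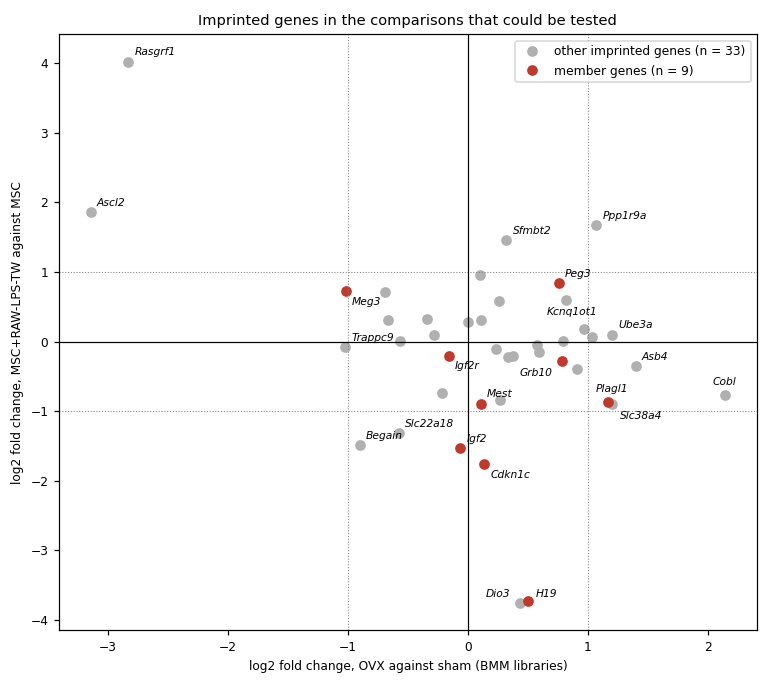
Log2 fold change of OVX against sham (horizontal axis) and of MSC+RAW-LPS-TW against MSC (vertical axis) for 9 of the 10 growth-control genes (red) and 33 other imprinted genes (grey) that passed the filter in both experiments. The comparisons share no library; dotted lines mark 2-fold. Rasgrf1 and Ascl2 lie at the upper left, at -2.83 and 4.02 and at -3.14 and 1.86, while H19 and Dio3 lie together at the bottom, at 0.50 and -3.73 and at 0.43 and -3.75.

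Dio3 was next to H19 in that plot, and its group levels had the same order, though libraries within OVX, within sham and within MSC did not. It was at 73.5, 54.9 and 53.6 CPM in OVX, 42.1, 44.6 and 48.3 CPM in sham, 11.5 and 14.6 CPM in MSC, 28.5 and 27.4 CPM in MSC+RAW-TW and 0.720 and 1.21 CPM in MSC+RAW-LPS-TW. Among the 12516 genes whose mean reached 1 CPM in both experiments, the 5 with the highest Pearson correlation with H19 in log2 CPM over the 12 libraries were Cracr2b (r = 0.99), Dio3 (0.99), Paox (0.99), Gdf3 (0.99) and Ccn5 (0.99). The points share libraries and fall into 5 groups, so these values are a description of the group levels. Gdf3, a ligand of the TGF-beta family, was at means of 28.0 CPM in OVX, 16.2 in sham, 2.44 in MSC, 5.49 in MSC+RAW-TW and 0.0957 in MSC+RAW-LPS-TW. Of the 4 genes of the set that could be ranked beside H19, the correlation was 0.51 for Plagl1, 0.41 for Grb10, -0.26 for Peg3 and -0.67 for Igf2r.

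**Figure D4:**
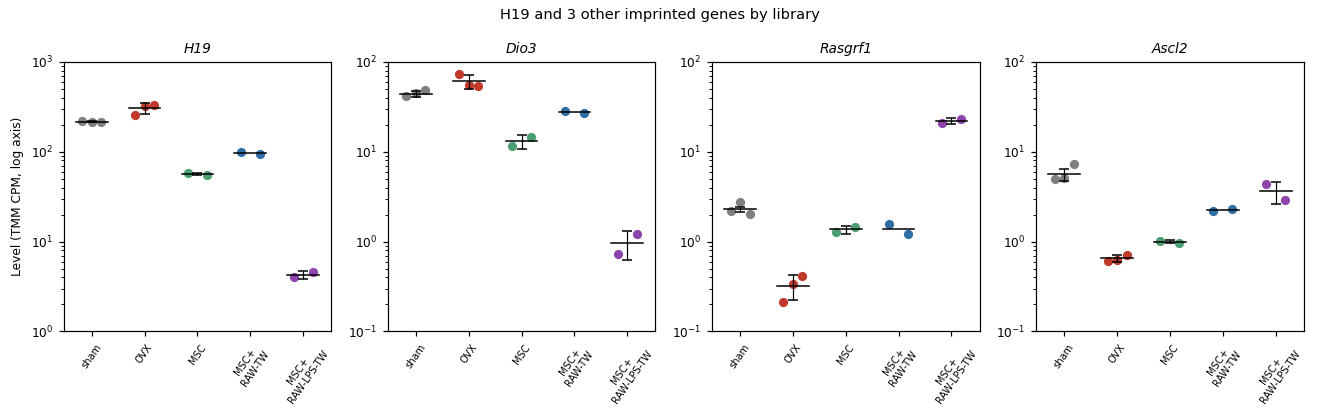
Level of H19, Dio3, Rasgrf1 and Ascl2 (vertical axis, TMM-scaled CPM, log axis) in every library of the 5 groups, with mean and SD as in the plot of all 10 genes. H19 and Dio3 are lowest in MSC+RAW-LPS-TW, where Rasgrf1 is highest, at 21.0 and 23.3.

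Along the chromosomes, imprinted neighbours had fold changes of both signs. In the H19 to Osbpl5 stretch of chromosome 7, H19 had a log2 fold change of -3.73 between MSC+RAW-LPS-TW and MSC while Ascl2 rose by 1.86, and Osbpl5, Cd81, Kcnq1ot1 and Tssc4 had log2 fold changes of 0.59, 0.30, 0.07 and 0.00. Below 0 with H19 were Kcnq1, a potassium channel, at -3.03 (SE 1.21, adjusted p = 0.0931 by edgeR), Cdkn1c at -1.76, Igf2 at -1.53 and Slc22a18, which was called, at -1.32. Ins2 and Phlda2 did not pass the filter in either experiment. In the Begain to Dio3 stretch of chromosome 12, Dio3 fell by 3.75 while the maternally read Meg3, 707 kb away, had a log2 fold change of 0.73 (SE 0.68). Begain, at the other end, was at -1.49 (SE 0.80), with overlapping groups. Rian and Mirg, which continue the Meg3 transcript, passed the filter in the BMM libraries only, with log2 fold changes of -0.02 (SE 0.32) and -0.39 (SE 0.49) in OVX against sham, beside -1.02 for Meg3.

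**Figure D5:**
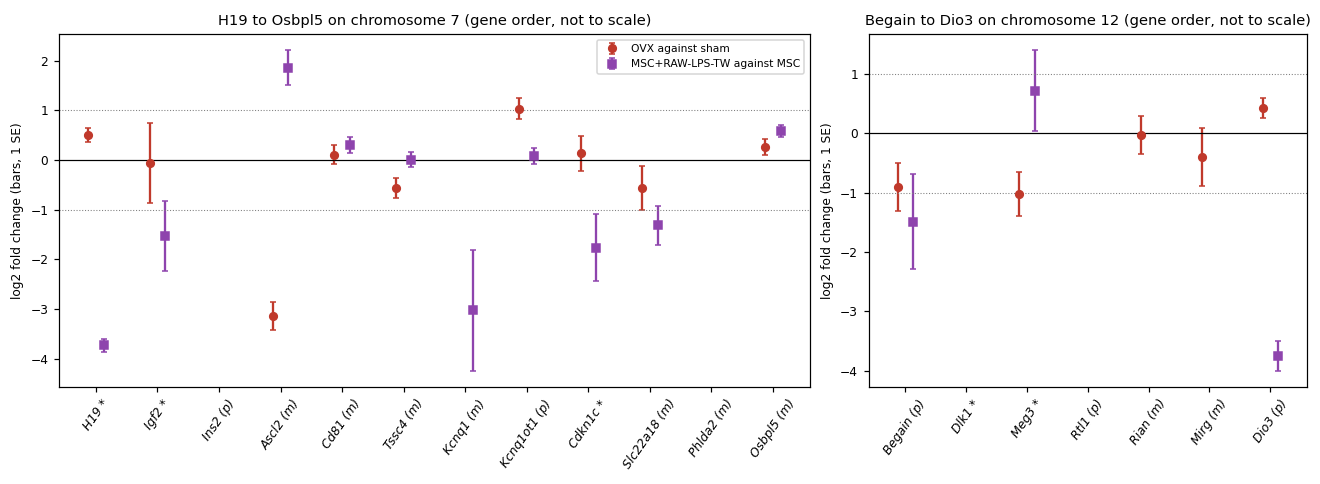
Log2 fold change with bars of 1 SE (vertical axis) of imprinted genes in their order along 2 stretches of chromosomes 7 and 12, for OVX against sham (circles) and MSC+RAW-LPS-TW against MSC (squares). An asterisk marks the 10 growth-control genes, (m) and (p) the parental copy read, and gaps are genes that did not pass the filter. The stretches hold values of both signs, from -3.73 for H19 to 1.86 for Ascl2 in the first.

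Antisense and overlapping genes limit some of these values, since the strand setting of the counting was not given in the sources used here. Mest shares 912 bases of exon with Copg2 on the opposite strand. Copg2 was at 11.1 to 26.3 CPM in the BMM libraries and 25.6 to 32.6 CPM in the MSC libraries. Airn, the antisense RNA of Igf2r, shares no exon base with it and was at 2.21 to 5.72 CPM. Igf2 shares 3596 of its 5723 exon bases with Gm49394, a protein-coding gene on the same strand that held 0 counts. How reads in the shared bases were assigned was not given in the sources used here, so the level of Igf2 is uncertain. Igf2os shares 98 bases with Igf2 and held 15 counts over the 12 libraries. Cdkn1c shares 625 of its 2039 exon bases with Gm44732, an opposite-strand gene that held 0 counts. Meg3 shares 1228 bases with an opposite-strand gene that is not analysed here.

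Proteins that keep imprints through cell division were examined as a list of 8. In OVX against sham, 2 of 8 rose, Smchd1 (log2 fold change 1.10, adjusted p = 0.00277 by edgeR) and Zfp445 (1.19, adjusted p = 0.0036 by edgeR), beside 7.47% of all genes that rose. Neither was called without OVX replicate 1 or with the GC content and length trends removed. With the trends removed, the log2 fold changes were 0.35 for Smchd1 and 0.65 for Zfp445. Zfp57, which binds methylated imprinting control regions, was at 5.06, 3.27 and 3.68 CPM in OVX and 1.30, 2.72 and 2.42 CPM in sham. Its groups did not overlap, with a log2 fold change of 0.92 (SE 0.34, adjusted p = 0.0749 by edgeR). Its partner Trim28 was at a log2 fold change of -0.33 (SE 0.12), Ctcf, which insulates Igf2 from the enhancers on the maternal copy, at 0.17 (SE 0.19), and the maintenance methyltransferase Dnmt1 at -0.40 (SE 0.20).

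In MSC+RAW-LPS-TW against MSC, edgeR called 0 of the 7 list members that passed the filter, DESeq2 also called 0, and for 3 the unadjusted p was under 0.05, beside 12.8% of all genes called and 37.9% with such an unadjusted p. Dnmt1 and its partner Uhrf1 passed the adjusted p but not the 2-fold limit. Dnmt1 was lower by a log2 fold change of -0.73 (SE 0.11, adjusted p = 0.000782 by edgeR) and Uhrf1 by -0.72 (SE 0.13, adjusted p = 0.00186 by edgeR). Ctcf was at -0.27 (SE 0.11), Trim28 at -0.22 (SE 0.10) and Zfp57 at -0.19 (SE 0.20).

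On the receiving side of Igf2, the receptors Igf1r and Insr and the RNA-binding proteins Igf2bp1, Igf2bp2 and Igf2bp3 were examined. By edgeR, 0 of the 4 that passed the filter in OVX against sham and 0 of 5 in MSC+RAW-LPS-TW against MSC were called. DESeq2 called 0 in each, and the unadjusted p was under 0.05 for 1 gene in each comparison. In OVX against sham this was Igf2bp2, with a log2 fold change of -0.76 (SE 0.23, adjusted p = 0.0396 by edgeR), under the 2-fold limit and with overlapping groups. Over all genes, 11.5% and 12.8% were called, and 40.2% and 37.9% had such an unadjusted p. Igf1r, the receptor that signals for Igf2, was at 23.4 to 34.8 CPM in OVX and 25.1 to 27.4 CPM in sham, with a log2 fold change of 0.20 (SE 0.18). It was at 54.2 to 58.8 CPM in MSC, 41.7 to 42.5 CPM in MSC+RAW-TW and 61.0 to 63.2 CPM in MSC+RAW-LPS-TW, with a log2 fold change of 0.14 (SE 0.11) between MSC+RAW-LPS-TW and MSC.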

How the data were processed

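RNA of 6 BMM and 6 MSC libraries was sequenced by the authors as 150-bp read pairs after poly(A) selection, with a strand-marking kit. Per the labels and methods, reads were trimmed with Trim Galore 0.6.7, mapped to GRCm38 with HISAT2 2.1.0 and counted with featureCounts 2.0.1. The deposited tables hold whole-number counts for every gene, with no normalization. Column names of the co-culture libraries gave the group but not the replicate, so these are named A and B.

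The members and lists were chosen with earlier results of these data known. GENCODE annotation of GRCm38 named 55141 of 55487 genes. Counts were fitted with edgeR 4.0.16 in R 4.3.3 (TMM, filterByExpr, quasi-likelihood F-test, all libraries of an experiment), and called where they differed 2-fold or more with p, adjusted over all genes by Benjamini-Hochberg, not above 0.05. The fit kept all libraries, with those of near-identical pairs apart, so SE and p may be too small. SE is the size of the log2 fold change divided by the square root of F. CPM per kb divides by exon length. The study's captions describe error bars over independent experiments, but do not say what each RNA library stands for. Whether replicates are separate animals or cultures was not given, so p-values measure the spread between libraries, which may be technical. The pipeline was tested on simulated data. Other imprinted genes are named where called, at most 8 per comparison whose mean reached 1 CPM. H19-like genes are the 5 with the highest correlation of log2 CPM (prior count 2). Alternatives were DESeq2 1.42.0, RLE scaling, other filters, blocks, GC content and length trends (lowess, span 0.3), merged pairs, fits of only the 2 groups compared and leaving out each library.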

Additional observations from a re-analysis of the deposited data

How the results depend on the processing

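Of 493 values of the growth-control genes under alternatives, 16 had the other sign, all where the reported log2 fold change lay between -0.15 and 0.80, and 0 were for a called gene. H19 in MSC+RAW-LPS-TW against MSC was called under all 14 alternatives, and Plagl1 in OVX against sham under 7 of 14. Meg3 in OVX against sham passed both limits under 2 of 14 and Grb10 under 1 of 14. In MSC+RAW-LPS-TW against MSC, Cdkn1c, Peg3 and Plagl1 passed them under no alternative that kept both libraries of MSC+RAW-LPS-TW.

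Called genes in OVX against sham (1818) were 812 (353 higher, 459 lower, beside 1178 and 640) with GC content and length trends removed and ranged from 1213 to 2947 when each library was left out. Without sham replicate 1 there were 2947. Called genes in MSC+RAW-LPS-TW against MSC (2412) ranged from 1946 to 2888 when each library was left out. Other imprinted genes called in OVX against sham (7) were 4 with the trends removed and 4 to 13 when each library was left out, and in MSC+RAW-LPS-TW against MSC (5) they were 4 to 7. Genes past 2-fold between MSC+RAW-TW and MSC+RAW-LPS-TW (8317) were 16236 with no filter and 4897 where the mean reached 1 CPM, and 9405 to 10554 when each library was left out. In MSC+RAW-TW against MSC (6297) they were 14598, 3076 and 7664 to 7910, and the other imprinted genes past 2-fold (7) were 11 with no filter and 8 to 12 when each library was left out. The causes were not tested.

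Nothing in the labels ties same-numbered OVX and sham libraries to a shared source. Same-numbered libraries deviated together for 2 of 3 numbers (correlations of 0.41, -0.03 and 0.35). Different-numbered libraries ranged from -0.48 to 0.30, highest for OVX replicate 3 with sham replicate 2, which is near-identical to sham replicate 3. The correlations therefore do not single out a pairing by number. With replicate number as a block, 2117 genes and 8 other imprinted genes were called, and H19 was at 0.49. The numbers in the co-culture column names do not match the replicate numbers of the labels, so no block on replicate number was fitted in the MSC experiment. A block on the series of library numbers in the column names, chosen after seeing the data, gave 1693 called genes in OVX against sham and 2383 in MSC+RAW-LPS-TW against MSC. Igf2, Dlk1, Cdkn1c and Meg3 held at most 51 counts each in the MSC libraries, which limits the precision of their values.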
